A study of Homo sapiens with 6 samples.

Results

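The genes described here are 10 members of the BCL2 family, the proteins that decide whether the mitochondrial outer membrane is opened in apoptosis. They were taken by symbol from a table of read counts on 21850 genes, all 10 were listed, and all 10 passed the filter on low counts that 13971 genes passed. The cells were MM.1S, a human multiple myeloma line, harvested for RNA-seq on day 3 after infection with a lentivirus. Both groups carried such a virus: 3 libraries had a scramble hairpin (shNT) and 3 libraries had a short hairpin RNA against PRKCN (shPRKCN), a serine/threonine kinase whose current symbol is PRKD3. The labels do not say which PRKCN hairpin was used, whether infected cells were sorted before RNA was taken, or whether the 3 libraries of a group came from separate cultures, so the p-values measure only the spread between these libraries, which may be technical. Each library held between 35625564 and 37730003 counts.

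Family proteins fall into 3 roles. Pro-survival proteins (BCL2, BCL-XL from BCL2L1, MCL1, and BFL1 from BCL2A1) hold the effectors BAX and BAK1 in check, and BH3-only proteins (BIM from BCL2L11, PUMA from BBC3, NOXA from PMAIP1, and BMF) bind the pro-survival proteins, some of them also the effectors. Myeloma cells, like the plasma cells they derive from, are known for a strong reliance on MCL1, and drugs that mimic a BH3 domain act on this family. RNA levels are given here on 2 scales. CPM (counts scaled to a common library total, with TMM correcting the totals for composition) compare 1 gene between libraries, and the authors' FPKM (fragment counts scaled by gene length and library total) divide by gene length and compare genes with each other.

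The knockdown was checked first. PRKD3 stood at 1272, 1298 and 1216 CPM in the shNT libraries and at 535, 491 and 527 CPM in the shPRKCN libraries, so that 41.0% of the shNT level remained. Its log2 fold change was -1.29 (SE 0.034, adjusted p = 8.2e-43, edgeR). A gene is called below when the Benjamini-Hochberg adjusted p of edgeR's quasi-likelihood test over all 13971 genes is under 0.05 and the log2 fold change (shPRKCN over shNT) is beyond 0.58 in either direction. Markers of the labelled cell type were present in both groups: all 10 plasma cell markers were listed, with a sum of 4436 to 4499 CPM in shNT and 2975 to 3097 CPM in shPRKCN. XBP1, IRF4, TNFRSF17, SLAMF7, PRDM1, MZB1 and POU2AF1 had lower counts, and SDC1 higher counts, in every shPRKCN library than in every shNT library. Of the T cell markers CD3E went from 379 to 419 counts to 1021 to 1150 counts, while CD3D and CD3G had at most 1 count in any library. Of the mature B cell markers CR2 went from 883 to 935 counts to 2118 to 2271 counts, while MS4A1 had at most 8 counts. Myeloid and stromal markers summed to at most 1.47 CPM. The part of these marker changes in the results below was not tested. In bulk RNA, fewer cells of a kind and less RNA per cell cannot be told apart.

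Of the 10 members, BMF was called higher and BCL2 and PMAIP1 were called lower in shPRKCN. The other members, MCL1, BCL2L1, BCL2A1, BAX, BAK1, BCL2L11 and BBC3, were not called. Among all genes tested, 6.15% were called higher and 10.6% lower. At the adjusted p alone, 3 members were higher (BMF, BCL2L1 and BAK1) and 2 lower (BCL2 and PMAIP1), where 26.5% of all genes were higher and 27.8% lower. The CPM ranges of the groups did not overlap for 4 members that were higher and 3 that were lower, and for 29.0% and 29.8% of all genes. Counts over 10 genes beside such shares are not read as a result about the family as a whole. The median log2 fold change of the members was 0.05, against 0.00 over all genes.

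**Figure D1:**
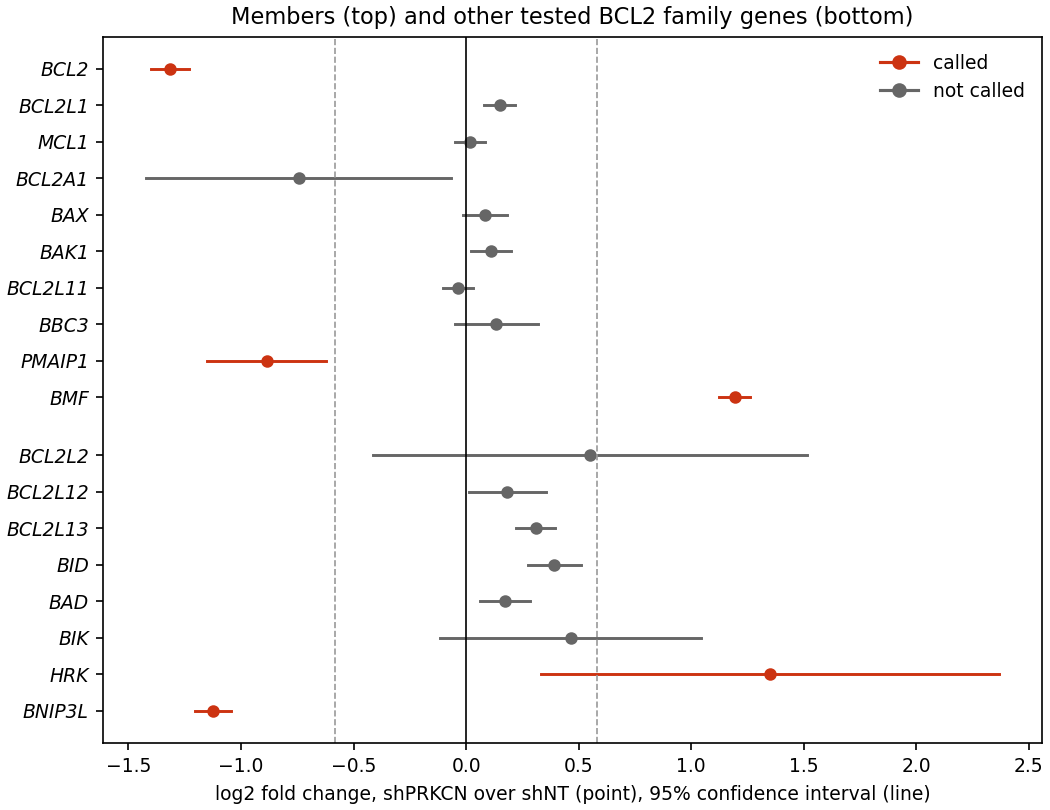
Log2 fold changes (shPRKCN over shNT, horizontal axis) of the 10 members and of 8 further family genes that were tested. Points are edgeR estimates, lines are 95% confidence intervals, dashed lines mark 0.58 in both directions and red marks called genes. BCL2, PMAIP1 and BNIP3L lie below the lower dashed line and BMF and HRK above the upper one.

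The largest rise of the 10 was that of BMF, 1 of the 4 BH3-only members and the only one of them called higher. BMF, a BH3-only protein that is held on the actin and myosin V cytoskeleton by a dynein light chain until released, lies on chromosome 15 (chr15:40087890-40108879, minus strand, GRCh38.p14). BMF stood at 197.5, 193.1 and 197.2 CPM in shNT and at 441.3, 454.6 and 448.3 CPM in shPRKCN. Every shPRKCN library was above every shNT library, and the libraries of a group lay close together. The change was 2.29-fold, with a log2 fold change of 1.19 (SE 0.034, adjusted p = 4.8e-41, edgeR), and 1.67% of the genes tested were higher by more. Leaving out any 1 library gave log2 fold changes of 1.18 to 1.21.

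BCL2L11 encodes BIM, a BH3-only protein that binds all pro-survival members and can activate BAX and BAK1 directly. On the FPKM scale it stood beside BMF in shNT, with 39.6 ± 0.672 FPKM against 39.2 ± 0.422 for BMF (SD, n = 3 each). BCL2L11 was measured at 309.4, 311.0 and 301.7 CPM in shNT and at 301.3, 299.0 and 299.7 CPM in shPRKCN. The ranges were separate by less than 1 CPM, and no difference was detected: the log2 fold change was -0.03, with a 95% confidence interval of -0.10 to 0.03 (adjusted p = 0.40, edgeR). In shPRKCN the level of BMF was 2.27, 2.36 and 2.32 times that of BCL2L11 in FPKM, where it had been 0.990, 0.964 and 1.01 times that level in the shNT libraries.

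PMAIP1 encodes NOXA, a BH3-only protein that binds MCL1 and BFL1 and drives MCL1 to degradation. PMAIP1 was a low-level gene, with 269, 259 and 337 counts in shNT and 174, 160 and 146 counts in shPRKCN. That is 7.62, 7.04 and 9.0 CPM against 4.66, 4.30 and 3.84 CPM. All shPRKCN libraries were below all shNT libraries, among which the third was highest. The log2 fold change was -0.89 (SE 0.132, adjusted p = 3.2e-08, edgeR), which left 54.1% of the shNT level, and 6.22% of the genes tested were lower by more.

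BBC3 encodes PUMA, a BH3-only target of p53. Its values were 11.5, 11.3 and 12.7 CPM in shNT and 12.9, 13.2 and 12.8 CPM in shPRKCN. The shPRKCN libraries were the upper ones, with the closest pair apart by little, and the log2 fold change of 0.13 had a 95% confidence interval of -0.05 to 0.32 (adjusted p = 0.21, edgeR). A change of the size seen for BMF lies outside the intervals of both BBC3 and BCL2L11.

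The stretches of DNA before the starts of BMF, BCL2L11 and PMAIP1 are shown because these BH3-only genes responded in different ways: BMF was called higher, PMAIP1 lower and BCL2L11 not at all. They are the RefSeq promoter sequences on GRCh38.p14 within 250 bases before the start, ended where an exon of GENCODE release 29 begins, and capitals mark a match to the FOXO motif GTAAACA. BMF lies at chr15:40108893-40109129 on the minus strand, BCL2L11 at chr2:111120664-111120913 on the plus strand and PMAIP1 at chr18:59899746-59899947 on the plus strand:
BMF: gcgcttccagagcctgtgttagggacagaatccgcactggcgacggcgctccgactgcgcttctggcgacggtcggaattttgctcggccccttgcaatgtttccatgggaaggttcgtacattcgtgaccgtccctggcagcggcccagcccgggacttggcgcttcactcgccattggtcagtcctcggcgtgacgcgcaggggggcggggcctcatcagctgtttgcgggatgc
BCL2L11: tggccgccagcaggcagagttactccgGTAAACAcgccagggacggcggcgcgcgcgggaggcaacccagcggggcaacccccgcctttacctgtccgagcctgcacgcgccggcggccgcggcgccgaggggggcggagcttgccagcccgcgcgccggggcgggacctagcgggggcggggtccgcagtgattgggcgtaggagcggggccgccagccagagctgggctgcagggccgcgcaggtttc
PMAIP1: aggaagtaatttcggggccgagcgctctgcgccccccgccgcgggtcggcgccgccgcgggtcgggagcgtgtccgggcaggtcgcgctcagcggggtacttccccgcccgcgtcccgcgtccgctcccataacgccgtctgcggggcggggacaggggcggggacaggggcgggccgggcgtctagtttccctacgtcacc
The 250 bases before the start held 65.2% G and C and 26 CpG dinucleotides at BMF, 76.8% and 34 at BCL2L11, and 72.8% and 36 at PMAIP1. The whole 250 bases of the 9 members with an entry (MCL1 was not matched) were searched on both strands for 7 motifs chosen after the values were seen. These were FOXO (GTAAACA), the interferon response element (GAAA, any 2 bases, then GAAA), the ETS-IRF composite element (GGAA, any 2 bases, then GAAA), the ATF4-CHOP element (TGATGNAAT), the cyclic AMP response element (TGACGTCA), AP-1 (TGANTCA) and the E-box (CACGTG). BCL2L11 held 1 FOXO match, 223 bases before its start, where 2.98% of 27305 promoters of this length hold one. BMF and PMAIP1 held none of the 7, which says only that these letters are not in this window. Among the other members BAX held 4 E-boxes (6.49% of promoters hold at least 1), BBC3 held 1 AP-1 match (6.60% of promoters) and 1 E-box, and BCL2A1 held 1 interferon response element (3.07% of promoters). All 250 bases before the starts of BCL2A1 and BCL2 lie in exons of GENCODE release 29, as do the last 60 before that of BAX, where the E-boxes 45 and 14 bases before the start fall. The starts used for BCL2 and BBC3 lie inside the spans of these genes. The BCL2 window (chr18:63319770-63320019) thus lies within BCL2, and the part of the BBC3 window with the AP-1 match lies within BBC3. The other motifs are held by 2.44% (ETS-IRF), 0.916% (ATF4-CHOP) and 1.77% (cyclic AMP response element) of promoters, and no 2 of these matches overlapped.

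BCL2 was the 1 pro-survival member that was called. It is the founding gene of the family and the target of venetoclax, and lies on chromosome 18 (chr18:63123346-63320090, minus strand). BCL2 stood at 154.4, 156.8 and 150.2 CPM in shNT and at 62.8, 59.7 and 63.1 CPM in shPRKCN. The groups were far apart compared with the spread inside either of them. The log2 fold change was -1.31 (SE 0.042, adjusted p = 1.2e-38, edgeR), 40.2% of the shNT level remained, and 2.30% of the genes tested were lower by more. With each library left out in turn it ran from -1.33 to -1.29.

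MCL1 was the most abundant member in FPKM in both groups. Its levels were 544.8, 560.6 and 533.0 CPM in shNT and 551.5, 546.1 and 560.6 CPM in shPRKCN, so that the groups overlapped. The log2 fold change was 0.02, with a 95% confidence interval of -0.05 to 0.08 (adjusted p = 0.69, edgeR). BCL2L1, the gene of BCL-XL, was next in abundance, at 291.3, 291.5 and 295.8 CPM in shNT and at 327.8, 332.7 and 314.3 CPM in shPRKCN. All shPRKCN libraries of BCL2L1 were above the shNT libraries. The difference passed the p limit but was small, with a log2 fold change of 0.15 (SE 0.034, adjusted p = 1.4e-04, edgeR), under the fold limit. Counts were per gene, so the long and short forms of BCL-X, and likewise the splice forms of MCL1 and BIM, cannot be told apart here.

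BCL2A1, the gene of BFL1, was close to the limit of what this depth resolves. It had 46, 37 and 51 counts in shNT and 19, 40 and 23 counts in shPRKCN. The second shPRKCN library overlapped the shNT range and the other two lay below it. The log2 fold change was -0.74, with a wide 95% confidence interval of -1.42 to -0.07 and an adjusted p of 0.058 (edgeR). Without the second shPRKCN library the value was -1.13 with an adjusted p of 0.013, and without the second shNT library it was -0.86 with an adjusted p of 0.045, both past the limits.

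The effectors BAX and BAK1 form the pores in the outer membrane. BAX stood at 57.7, 59.9 and 62.7 CPM in shNT and at 65.8, 66.0 and 59.4 CPM in shPRKCN, where the third library fell within the shNT range. Its log2 fold change was 0.08, with a 95% confidence interval of -0.01 to 0.18 (adjusted p = 0.14, edgeR), and without the third shPRKCN library it was 0.14 with an adjusted p of 0.029. BAK1 stood at 72.4, 67.4 and 69.7 CPM in shNT and at 73.7, 78.3 and 74.2 CPM in shPRKCN. The groups of BAK1 were separate by a small gap. Its log2 fold change was 0.11 (SE 0.045, adjusted p = 0.034, edgeR), and leaving out the second library of either group gave an adjusted p of 0.14, and leaving out the third shNT library one of 0.061.

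**Figure D2:**
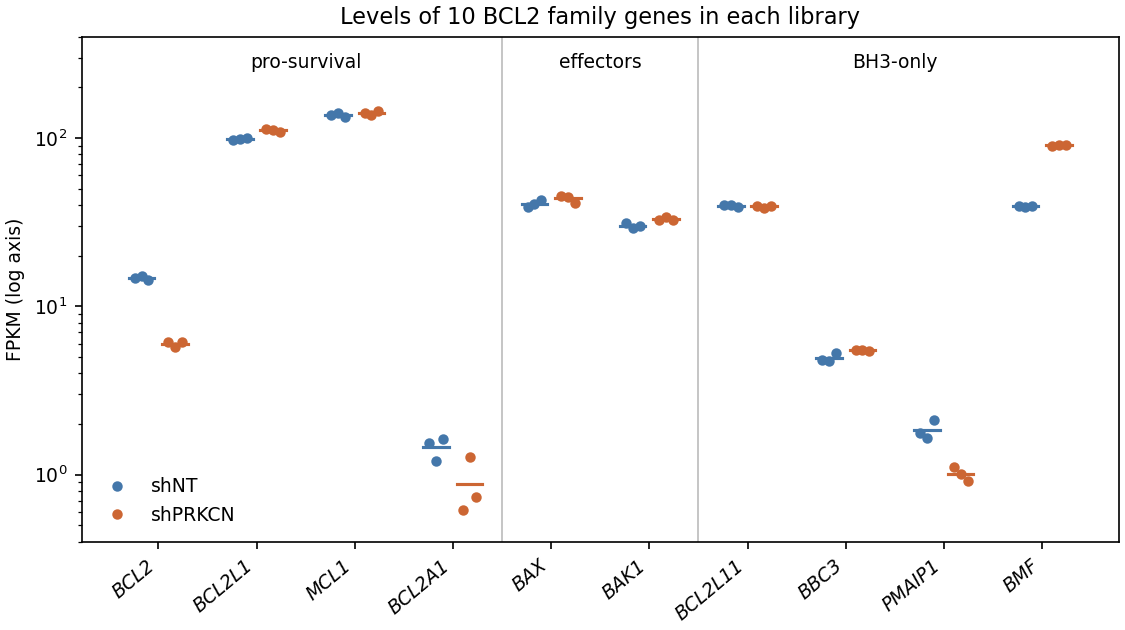
FPKM of the 10 members in each library on a log axis, grouped by role. Points are libraries and bars are means of 3. BCL2 and PMAIP1 lie lower and BMF higher in every shPRKCN library than in every shNT library, while MCL1 stays between 134 and 144 FPKM.

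The members spanned a wide range of levels per length. In shNT the order of mean FPKM was MCL1 (137), BCL2L1 (98.6), BAX (40.8), BCL2L11 (39.6), BMF (39.2), BAK1 (30.1), BCL2 (14.7), BBC3 (4.94), PMAIP1 (1.84) and BCL2A1 (1.45). BAX and BCL2L11, and BCL2L11 and BMF, overlapped in their libraries and cannot be put in order, while other neighbours had separate ranges. In shPRKCN BMF moved to the third place, at 90.8 ± 0.814 FPKM (SD, n = 3), above BAX (43.9) and below BCL2L1 (111). BCL2 kept the seventh place at 6.01 FPKM, now close to BBC3 at 5.5 FPKM, although their ranges were separate. PMAIP1 (1.01) and BCL2A1 (0.876) overlapped.

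Summed by role, pro-survival RNA in FPKM lay in ranges that were separate by less than 1 FPKM. It came to 251.0, 255.8 and 249.5 FPKM in shNT and 260.5, 256.6 and 258.8 FPKM in shPRKCN. The direction depends on the scale: in CPM the same genes summed to less in every shPRKCN library than in every shNT library. This sum is thus not read as a rise or a fall. MCL1 made up 54.4% ± 0.760 of this sum in shNT and 54.5% ± 1.03 in shPRKCN (SD, n = 3 each), and BCL2L1 went from 39.1% ± 0.736 to 42.9% ± 1.02. The share of BCL2 went from 5.85% ± 0.070 to 2.32% ± 0.081, and that of BCL2A1 was under 1% in every library. BCL2 has a long gene model, and its share was 15.5% and 6.58% on the CPM scale, which does not divide by length. The ratio of MCL1 to BCL2 in FPKM was 9.25, 9.38 and 9.31 in shNT and 23.0, 24.0 and 23.3 in shPRKCN.

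The BH3-only sum, in contrast, was 85.9, 85.3 and 85.7 FPKM in shNT and 136.1, 136.2 and 137.4 FPKM in shPRKCN. It covers only the 4 BH3-only members. BAD and BID, taken up below, were not summed, although both had higher FPKM than BBC3 and PMAIP1. Mean FPKM in shNT and shPRKCN was 31.46 and 35.99 for BAD and 11.12 and 14.80 for BID. With both counted, the share of BMF would be lower and the ratio to the pro-survival sum higher. BMF made up 45.8% ± 0.334 of the sum of the 4 members in shNT and 66.5% ± 0.409 in shPRKCN (SD, n = 3 each). The share of BCL2L11 went from 46.3% ± 0.883 to 28.7% ± 0.369, although its own level did not differ detectably. BBC3 and PMAIP1 together stayed the minor part, with shares of 4.03% and 0.741% in shPRKCN. The ratio of the BH3-only sum to the pro-survival sum was 0.342, 0.333 and 0.344 in shNT and 0.523, 0.531 and 0.531 in shPRKCN, and that of the effectors to the pro-survival sum was 0.280, 0.273 and 0.291 against 0.299, 0.307 and 0.285, with overlap. BMF and BCL2 moved in opposite directions, and the ratio of BMF to BCL2 went from 2.67, 2.57 and 2.74 to 14.7, 15.9 and 14.8. These are ratios of RNA and were not tested. They say nothing of protein.

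**Figure D3:**
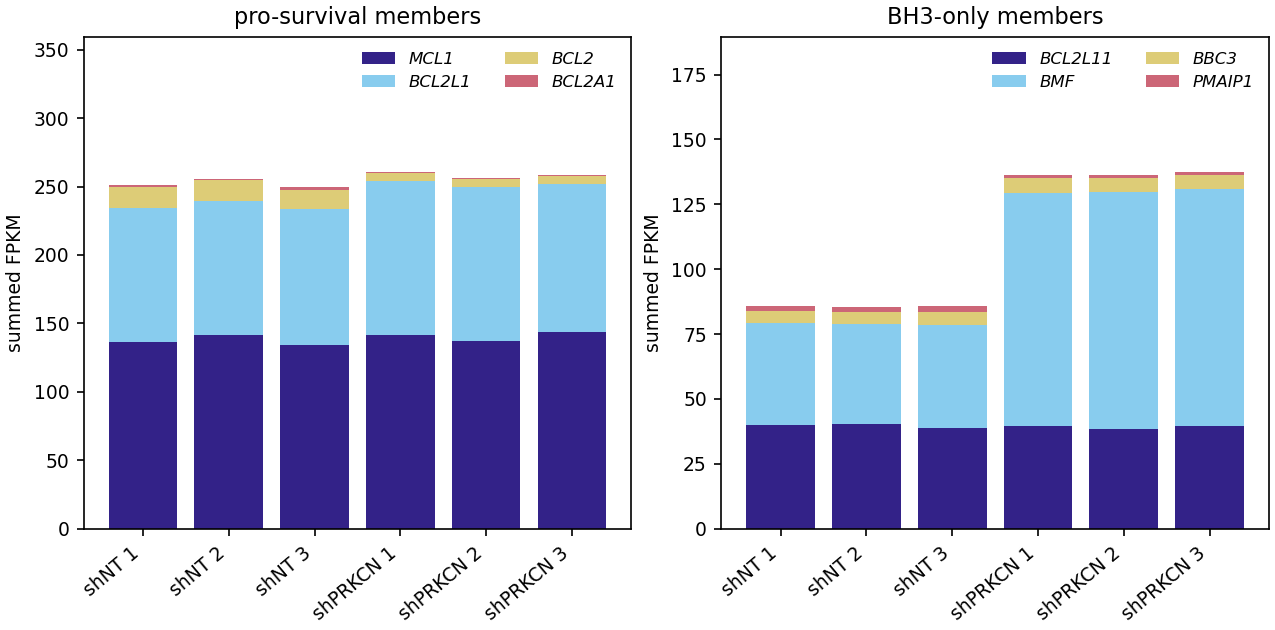
Summed FPKM of the 4 pro-survival members (left) and the 4 BH3-only members (right) in each library, stacked by gene. The pro-survival bars stay between 249 and 261 FPKM, while the BH3-only bars go from 85.3 to 85.9 FPKM in shNT to 136 to 137 FPKM in shPRKCN, with the added part in BMF.

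A further 13 genes of the family or with BH3-like regions were looked at, and 8 were tested. Of these 8, 1 was called higher and 1 lower, beside 6.15% and 10.6% of all genes tested. BCL2L10, BCL2L14, BCL2L15, BOK and BNIP3 had too few counts, with at most 13 in any library. BNIP3L, a mitochondrial receptor for mitophagy, was called lower: it went from 164.1, 159.9 and 161.8 CPM to 73.9, 71.9 and 77.0 CPM, with a log2 fold change of -1.12 (SE 0.040, adjusted p = 1.5e-35, edgeR). HRK, a BH3-only gene, was called higher on very few counts, 13, 2 and 8 in shNT and 17, 21 and 23 in shPRKCN. Its log2 fold change of 1.35 (SE 0.510, adjusted p = 0.021, edgeR) was 0.90 without the second shNT library (adjusted p = 0.17), and the call was also lost without the third shNT, the second shPRKCN or the third shPRKCN library. The DESeq2 adjusted p of HRK was 0.067.

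Of the same 8 tested genes, 4 were higher and 1 lower at the adjusted p alone, beside 26.5% and 27.8% of all genes. Their median log2 fold change was 0.35, against 0.00 over all genes. Counts over so few genes are not read as a result about the family. BID, which links death receptors to the mitochondrion once cleaved, rose from 28.8, 28.6 and 32.1 CPM to 38.4, 38.5 and 40.5 CPM, with a log2 fold change of 0.39 (adjusted p = 2.5e-08, edgeR). BCL2L13, a mitophagy receptor, rose by a log2 fold change of 0.31 (adjusted p = 5.3e-09, edgeR). BAD, a BH3-only protein governed by phosphorylation, had a log2 fold change of 0.17 (adjusted p = 0.0064, edgeR), which was 0.12 with an adjusted p of 0.11 without the first shNT library. BCL2L12 (0.18, adjusted p = 0.065), BIK (0.46, adjusted p = 0.18) and BCL2L2 (0.55, adjusted p = 0.35, edgeR), the gene of pro-survival BCL-W, did not pass. BIK had a log2 fold change of 0.89 without the third shNT library and was then called.

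Downstream of the effectors, the apoptosome, caspases and their inhibitors were followed in a list of 17 genes, all tested. None was called higher and 3 were called lower. Over all genes 6.15% were called higher and 10.6% lower. At the adjusted p alone 3 were higher and 8 lower, beside 26.5% and 27.8% of all genes, and the list's median log2 fold change was -0.05, beside 0.00 over all genes. APAF1, the scaffold of the apoptosome, fell from 11.5, 12.2 and 10.2 CPM to 7.12, 6.05 and 5.77 CPM, a log2 fold change of -0.84 (SE 0.112, adjusted p = 1.5e-09, edgeR). The other two called genes belong to the inhibitor of apoptosis family: BIRC5 (survivin, which also serves in cell division) at -0.89 and XIAP, which binds caspases directly, at -0.60 (adjusted p = 2.2e-28 and 1.6e-14, edgeR). XIAP lay at the fold limit and was not called without the first shNT library (-0.58) or the third shPRKCN library (-0.57), nor with limma on log2(FPKM + 0.1), also at -0.57, or on log2(FPKM + 1), at -0.46. The called genes of this list thus hold both promoters and inhibitors of caspase activity.

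The 9 genes for outer-membrane partners and mitochondrial shape, among them the VDAC channels and the mitofusins, gave no call in edgeR or in any alternative fit. At the adjusted p alone 3 were higher and 1 lower, and their median log2 fold change was -0.03. Among all genes, the shares were 26.5% higher and 27.8% lower at that limit, and 6.15% and 10.6% for calls.

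The proteins that hold or turn over family members were followed in 14 genes, of which 13 were listed (TRIM17 was not). DYNLL2, the dynein light chain known to hold BMF, was the 1 gene called higher, and none was called lower. It went from 52.2, 52.8 and 52.9 CPM in shNT to 112.7, 117.5 and 118.2 CPM in shPRKCN, a log2 fold change of 1.14 (SE 0.044, adjusted p = 5.4e-34, edgeR). All shPRKCN libraries lay far above the shNT libraries, as they did for BMF at 1.19. DYNLL1, the related chain known to hold BIM, was added after the values were seen: its log2 fold change was -0.08, with a 95% confidence interval of -0.16 to 0.00 (adjusted p = 0.096, edgeR). At the adjusted p alone 4 genes of this list were higher and 2 lower, with a median of 0.02. Over all genes, 26.5% were higher and 27.8% lower at that limit, and 6.15% were called higher and 10.6% lower.

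Transcription factors known to act on family genes made up a list of 19, all tested, with 0 called higher, 4 called lower and a median log2 fold change of 0.07, beside 6.15% and 10.6% called and a median of 0.00 over all genes. At the adjusted p alone 8 were higher and 7 lower, beside 26.5% and 27.8% of all genes. IRF4, a plasma cell factor on which myeloma cells depend, fell from 633.9, 628.7 and 610.2 CPM to 176.3, 173.1 and 170.0 CPM, a log2 fold change of -1.85 (SE 0.035, adjusted p = 5.7e-52, edgeR). The stress factors ATF3 (-1.26, adjusted p = 9.9e-26) and DDIT3 (-1.03, adjusted p = 1.5e-16, edgeR), both known to act on BH3-only genes, fell, and a link to any member was not tested. E2F1, a cell cycle factor, was at -0.72 (adjusted p = 1.0e-17, edgeR). FOXO3, known to act on BCL2L11 and on BBC3 and named after the values were seen, rose by a log2 fold change of 0.33 (SE 0.033, adjusted p = 2.0e-13, edgeR), under the fold limit. BCL2L11, whose promoter holds the FOXO match shown above, was at -0.03. A link of FOXO3 to any member was not tested, and its RNA level does not give the activity of its protein.

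**Figure D4:**
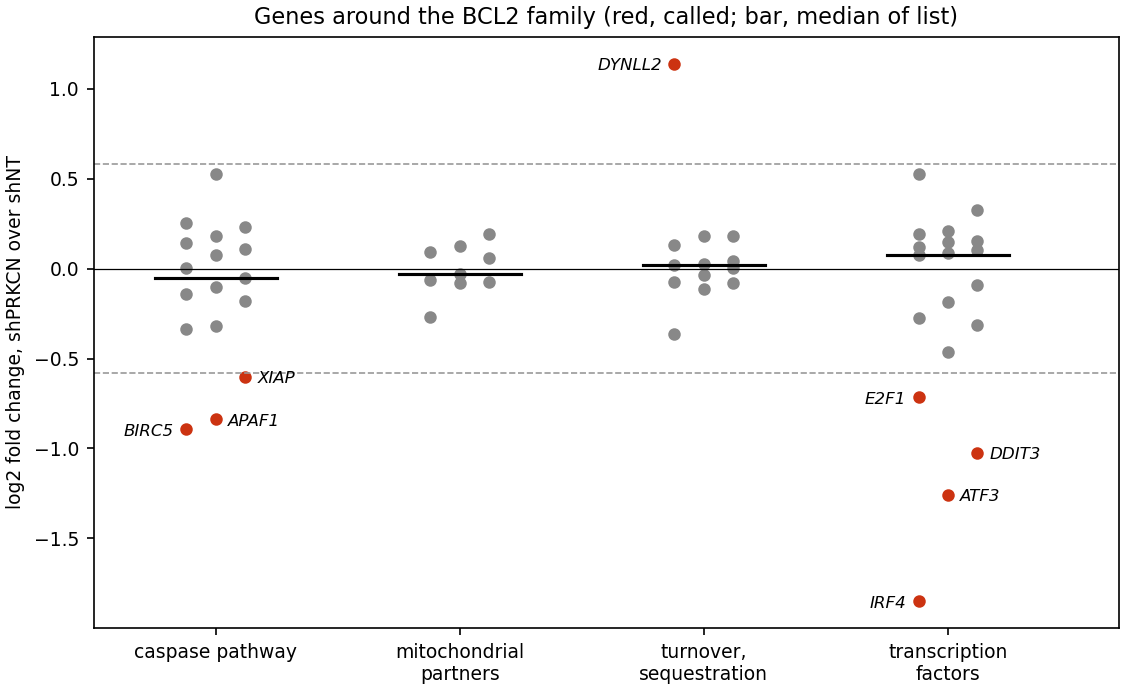
Log2 fold changes (shPRKCN over shNT) of 17 caspase pathway genes, 9 mitochondrial partner genes, 13 turnover and sequestration genes and 19 transcription factor genes. Each point is a gene, red marks called genes, the short bar is the median of the list and dashed lines mark 0.58 in both directions. DYNLL2 at 1.14 is the red point above, and IRF4 at -1.85 is the lowest.

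Some members share sequence with other genes, and how the authors' counting treated such reads is not given in the sources used here. Of the 50-base stretches of BCL2L1 transcripts, 37.4% also occur in ABALON, a gene listed with at most 32 counts, and 9.63% of those of BCL2L11 occur in MIR4435-2HG, listed with at most 5007 counts. BAK1 shares 14% with a pseudogene and a neighbouring gene, and BMF 6.54% with its antisense gene BMF-AS1, none of which is listed. BCL2A1, itself at 19 to 51 counts, shares 4.42% with ST20, listed with at most 105 counts. BCL2, MCL1 and PMAIP1 share none. Without the strand setting, reads of BMF and of BMF-AS1 cannot be told apart.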

How the data were processed

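RNA of 6 MM.1S libraries, 3 per group, was analysed. The authors deposited raw counts per gene, not normalized, and FPKM values of the same genes and libraries that follow from those counts and 1 fixed length per gene. The submitters' processing notes name FastQC, HISAT2, StringTie and GRCh38.p14, without versions. The counting program, annotation and strand setting are not given in the sources used here. Groups were taken from the treatment labels. Counts were tested with edgeR 4.0.16 (R 4.3.3, TMM scaling, filterByExpr, quasi-likelihood test) over 13971 of 21850 genes with Benjamini-Hochberg adjustment, and the standard error is the log2 fold change divided by the square root of F. The call limits were 0.05 for the adjusted p and 0.58 for the log2 fold change, as in the study's methods. An exact permutation test of 3 against 3 libraries cannot go below p = 0.10 and was not used. Alternatives were DESeq2 1.42.0, RLE and library size scaling, no low-count filter, a floor of 10 counts per library, a replicate block, limma 3.58.1 on log2 FPKM with a pseudocount of 1 or 0.1, and each library left out. The steps were tested on simulated data. Shares and ratios use FPKM and were not tested. No library repeated another: the chi-square statistic per degree of freedom was 3.38 to 4.80 within groups and 63.8 to 70.2 between them. The rule for named genes took the 10 members, PRKD3, tested further family genes, called genes of the other lists that averaged 50 counts or more, and listed genes that were absent or filtered. DYNLL1, FOXO3, STAT5A and the chromosome 18 genes were added after the values were seen, and cell type markers are named as checks. The members and lists were chosen with earlier results of these data known. 1 gene of the caspase list is not reported here and was left out of the list's counts.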

Additional observations from a re-analysis of the deposited data

How the results depend on the processing

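Of 140 values of the 10 members over 14 alternatives, 136 kept their direction and their call, which needs both limits, and 0 reversed. At the adjusted p alone, BAK1 was lost in 4 alternatives and BAX passed in 1. PMAIP1 fell under the fold limit with limma on log2(FPKM + 1) (-0.50), a scale that understates changes of low genes, so that 1 member was called lower there. BCL2A1 was called in 3 alternatives (with at least 10 counts in every library, -0.74, and without the second library of either group). HRK, at 2 to 23 counts, was lost under DESeq2, under at least 10 counts in every library, and with limma on either FPKM scale, which left 0 further family genes called higher. Leaving out 1 library gave 0 to 1 for that count, and 0 to 1 transcription factors called higher (STAT5A, whose log2 fold change then ran from 0.44 to 0.61, past the limit without the second library of either group). With limma on log2(FPKM + 1), 1 caspase pathway gene was called lower, and with log2(FPKM + 0.1) 2, without XIAP. The cause of these changes was not otherwise tested. Sums and shares of a role depend on gene length. With CPM in place of FPKM the shares were, in shNT and shPRKCN, 29.5% and 34.6% for BCL2L1, 15.5% and 6.58% for BCL2, 46.3% and 45.8% for BAX, 37.5% and 58.5% for BMF and 58.8% and 39.2% for BCL2L11, and 58.8% for MCL1 in shPRKCN. No pairing by replicate number was detected: the correlations of deviations of same-numbered libraries were -0.042, -0.013 and 0.0038, and not every library correlated best with its own number. Such correlations over all genes, many of them low, could miss a pairing. With the replicate block 854 genes were called higher and 1463 lower, against 859 and 1475, and no call changed among PRKD3, the members and the named genes of the lists that were refitted, but the adjusted p of BAK1 was 0.057. Depth limits BCL2A1, HRK, BIK and BCL2L2, all with at most 66 counts in any library.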

Other observations

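BCL2 and PMAIP1, both called lower, lie 3.22 Mb apart on chromosome 18. Of 178 genes tested on that chromosome, 14% were called lower and 5.06% higher, with a median log2 fold change of -0.05. Over all genes tested, 10.6% were called lower and 6.15% higher. The 6 tested genes between PMAIP1 and BCL2 did not move in 1 direction: RNF152 (-0.79, adjusted p = 0.038) and TNFRSF11A (-0.78, adjusted p = 0.030) were called lower and ZCCHC2 (0.84, adjusted p = 0.0029, edgeR) higher, while PIGN, RELCH and PHLPP1 were not called. BMF and BCL2A1 lie on chromosome 15, where 10.7% of 441 genes were called lower and 5.90% higher. These genes were looked at for their place and after the values were seen, and the 6 genes were not tested under the alternatives.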
